A study of Mus musculus with 6 samples.

Results

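Integrins are cell surface receptors built from 1 alpha and 1 beta chain, and laminins are the cross-shaped glycoproteins of basement membranes to which several of them bind. The genes described are 33 named integrin and laminin chains, of which 32 were represented among the 18193 genes measured in tumours of a mouse model of small cell lung cancer. A gene was included if a probe set of the array was annotated to its symbol alone, and it was read from its brightest probe set over the 6 arrays. Itga11 was not analysed here. The 32 genes comprise 23 integrin chains and 9 laminin chains (5 alpha, 3 beta and 1 gamma), and 70 probe sets in all were annotated to them.

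An integrin carries force and signals between the matrix or another cell and the actin cytoskeleton, and the pairing of its chains sets the ligand. Leukocyte integrins, most of them built on the beta chain encoded by Itgb2, bind adhesion molecules on other cells. The laminin receptors of epithelia and the broad group that pairs with the chain encoded by Itgb1 hold cells to basement membrane, fibronectin or collagen. Laminins are secreted as trimers of 1 alpha, 1 beta and 1 gamma chain, and the chains made differ between epithelium, endothelium, muscle and connective tissue.

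The tumour-propagating cells (TPCs) and the non-TPCs were sorted from the same primary tumours after staining for CD24, CD44 and EpCAM. The sources used here do not state the gates. Mice 1127, 920 and 0107, of a mixed C57BL/6;129Sv/J background, each gave 1 TPC and 1 non-TPC sample. The mice carried engineered alleles of Rb, p53 and p130 (a triple knockout of tumour suppressors), received Cre recombinase by adenovirus, were otherwise untreated, and had their tumours taken 6 to 7 months later, so both fractions share the mutations, the virus and the age of the tumour. Cells that the virus did not reach do not recombine, and the sources used here do not state which share of each fraction had recombined.

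Levels are log2 signals after RMA, and every difference is that of TPC minus non-TPC. The median level of all genes was 6.91 and their first quartile was 5.18. Of the 32 chains, 8 lay above the median and 7 below the first quartile, so many of the differences below rest on dim signal. The level of one gene was not set against that of another, because probes differ in how brightly they report. Signal of the labelled tumour type was present in both fractions. The neuroendocrine genes Insm1 and Chga averaged 11.78 ± 0.61 and 11.32 ± 0.71 in TPCs (SD, n = 3 each). In non-TPCs they averaged 11.03 ± 0.36 and 10.49 ± 0.78 (SD, n = 3 each). The epithelial gene Epcam stood between 11.57 and 13.35 in TPCs and between 9.98 and 12.95 in non-TPCs. Because the cells were stained for EpCAM before the sort, Epcam is not counted here as a sign of tumour identity.

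The comparison asks which integrin and laminin chains set TPCs apart from the other sorted cells of the same tumour. None of the 32 chains passed the test: at a limma adjusted p under 0.05, TPCs had 0 chains lower and 0 higher, beside shares of 0.0605% lower and 0% higher over all genes. In the limma fit blocked by mouse 0 passed as well, beside 0.0715% of all genes lower and 0% higher. At an unadjusted p under 0.05, 7 chains (21.9%) were lower and 0 were higher, beside 4.35% and 2.12% of all genes. The 7 are the integrin chains Itga1, Itga8 and Itgb2 and the laminin chains Lama3, Lama4, Lamb1 and Lamb3. The direction was the same in all 3 mice for 11 chains that were lower in TPCs (34.4%, beside 13.8% of all genes) and for 5 that were higher (15.6%, beside 19.7%). Counted by mouse, 17, 24 and 19 chains were lower and 14, 7 and 13 higher in TPCs of mice 1127, 920 and 0107. The arrays of the fractions did not overlap for 7 lower chains (21.9%, beside 5.91% of all genes) and for 2 higher ones (6.25%, beside 6.71%). The median difference was -0.21 over the 32 chains, against 0.04 over all genes, with -0.05, -0.23 and -0.13 in mice 1127, 920 and 0107.

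**Figure D1:**
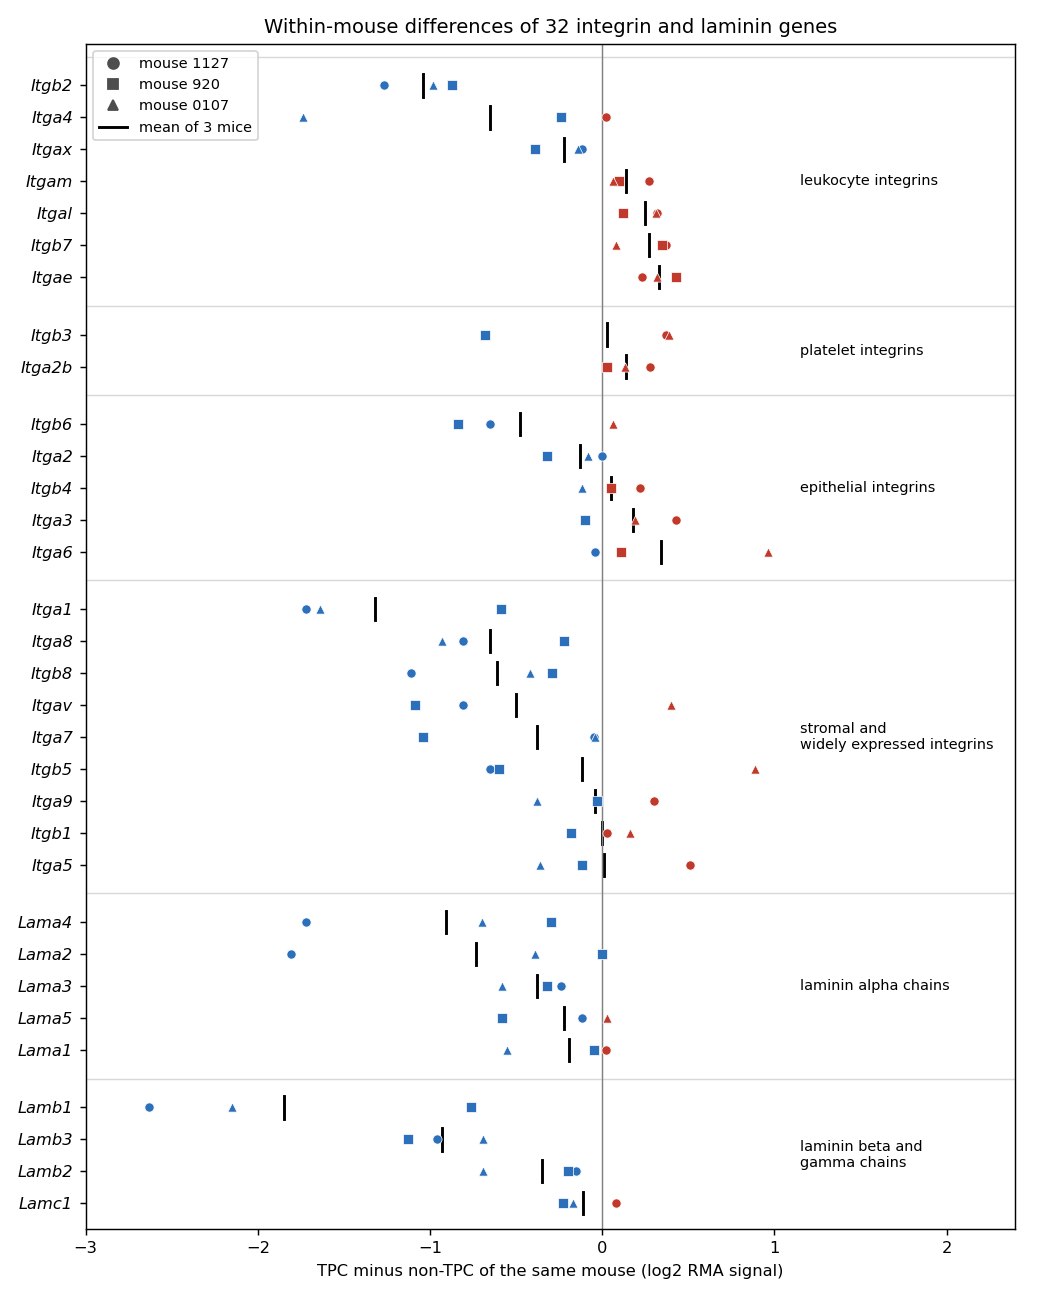
Difference between TPC and non-TPC of the same mouse (log2 RMA signal, x axis) for each of the 32 chains, ordered within 6 groups. Symbols mark the mouse, red is higher and blue lower in TPCs, and the black bar is the mean of the 3 mice. The laminin beta chain gene Lamb1 lies farthest to the left at -1.85, and no mean exceeds 0.34.

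To show the sequence next to the starts of chains that were lower in TPCs, the stretch before the annotated start is printed for Itga1, Itga8 and Lamb1, the genes among the 7 with an unadjusted p under 0.05 that have an entry in the RefSeq promoter table of build GRCm38.p6 (which held 21 of the 32 chains) whose stretch lies outside the annotated gene. They are written 5′ to 3′ on the gene's own strand and are 250, 209 and 103 bases long.
Itga1, chr13:115101965-115102214, minus strand: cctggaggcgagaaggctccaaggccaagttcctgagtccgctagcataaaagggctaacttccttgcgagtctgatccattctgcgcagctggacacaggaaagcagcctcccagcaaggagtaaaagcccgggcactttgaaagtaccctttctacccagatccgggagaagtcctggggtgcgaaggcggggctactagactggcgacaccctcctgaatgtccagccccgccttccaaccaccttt
Itga8, chr2:12301986-12302194, minus strand: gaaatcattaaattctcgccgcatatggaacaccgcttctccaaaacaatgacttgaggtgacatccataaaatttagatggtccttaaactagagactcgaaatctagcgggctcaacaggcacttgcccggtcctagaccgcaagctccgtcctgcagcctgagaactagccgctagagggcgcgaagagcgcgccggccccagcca
Lamb1, chr12:31265043-31265145, plus strand: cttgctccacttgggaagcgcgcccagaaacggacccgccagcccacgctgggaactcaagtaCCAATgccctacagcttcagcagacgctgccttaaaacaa
Capitals mark a CCAAT box (letters CCAAT), the only match of 5 motifs searched on both strands within the printed bases. CCAAT occurred in 33.8% of the 32851 windows of 250 bases before a start and in 3 of 21 windows of the chains. Outside its printed bases, the window of Lamb1 held 2 further matches, both of the GC box (GGGCGG, which binds SP1), found in 32.7% of all windows and in 8 of 21. The AP-1 site TGANTCA was found in 6.75% of all windows and in 1 of 21, the TEAD site GGAATG in 12.6% and 1, and the TATA box TATAAA in 12.4% and 0. The GC content of the printed stretches was 57.6%, 53.1% and 58.3% for Itga1, Itga8 and Lamb1, where the median of all windows was 52.4%.

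Among the stromal and widely expressed integrins, Itga1 had the largest difference of any integrin chain. Itga1 encodes a collagen receptor chain of smooth muscle, pericytes, fibroblasts, capillary endothelium and some lymphocytes. It was at 3.87, 4.27 and 3.92 in TPCs of mice 1127, 920 and 0107, against 5.59, 4.86 and 5.55 in their non-TPCs. All 3 TPC arrays lay below all non-TPC arrays, and mouse 920 had the highest TPC and the lowest non-TPC value. The mean difference of Itga1 was -1.32 (SE 0.24, limma adjusted p = 0.244), a 2.49-fold lower mean that did not pass. Itga1 in TPCs lay below the first quartile of all probe sets of each array (4.52 to 4.65), and averaged over its 2 probe sets the difference was -0.75.

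Itga8 encodes a receptor chain for nephronectin and other RGD ligands in mesenchyme and smooth muscle. It was at 3.95, 4.01 and 3.80 in TPCs of mice 1127, 920 and 0107, against 4.76, 4.23 and 4.74 in their non-TPCs. The arrays did not overlap, and as for Itga1 the smallest difference was that of mouse 920. Itga8 differed by -0.65 (SE 0.18, limma adjusted p = 0.553), at a level below the first quartile of all genes in both fractions. Its difference was -0.30 averaged over 2 probe sets.

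Itgb8, whose product pairs with the alpha V chain and activates latent TGF-beta, was lower in TPCs of all 3 mice by a mean of -0.61 (adjusted p = 0.771). Its differences were -1.11, -0.29 and -0.42 in mice 1127, 920 and 0107. Itga7, a laminin receptor chain of muscle, was lower in all 3 mice too, but the difference was -1.04 in mouse 920 and only -0.05 and -0.04 in mice 1127 and 0107 (mean -0.38, adjusted p = 0.886). Itga5, the fibronectin receptor chain, differed by 0.01 and Itga9, a receptor chain for tenascin and VCAM-1, by -0.04, each with both signs among the mice. Over the 9 genes of this group 0 were called. At an unadjusted p under 0.05, 2 were lower and 0 higher, beside 4.35% and 2.12% of all genes. The median difference was -0.38. That median was -0.04 when mouse 920 was left out and -0.11 when its non-TPC array alone was.

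The bright chains of the same group showed opposite signs among the mice. Itgav, whose product is the shared alpha chain of several fibronectin and vitronectin receptors, was at 9.17, 8.82 and 8.77 in TPCs of mice 1127, 920 and 0107, against 9.98, 9.90 and 8.37 in their non-TPCs. It was lower in TPCs of mice 1127 and 920 and higher in TPCs of mouse 0107 (mean -0.50, SE 0.43, adjusted p = 0.901). Itgb5, which encodes a partner of that alpha chain, was at 8.05, 7.87 and 8.28 in TPCs, against 8.71, 8.47 and 7.39 in non-TPCs of the same mice. The sign pattern was that of Itgav, and the mean difference of Itgb5 was -0.12 (adjusted p = 0.966). All 3 dimmer probe sets of Itgb5 repeated it, at 1.39, 0.35 and 0.14 in mouse 0107 and below 0 in mice 1127 and 920. The summed signal of 8 epithelial markers was 38200, 36500 and 27400 in TPCs, against 35100, 37000 and 10100 in non-TPCs. Of these markers 4 were higher in TPCs of all 3 mice and 1, the keratin gene Krt19, was lower in all 3. The part of epithelial cells in the differences of Itgav and Itgb5 was not tested.

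Itgb1 encodes the beta chain shared by most matrix-binding integrins. It was at 8.46, 8.63 and 7.40 in TPCs of mice 1127, 920 and 0107, against 8.44, 8.81 and 7.24 in their non-TPCs. The fractions overlapped throughout, and the spread lay between mice: both arrays of mouse 0107 were more than 1 unit below those of mice 1127 and 920. The mean difference was 0.00 (SE 0.49, adjusted p = 1), and the fit blocked by mouse gave an SE of 0.14. A difference of zero in the mean does not show that the fractions are alike, and the third brightest Itgb1 probe set differed by -0.52, -1.77 and -0.13 in the same mice.

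**Figure D2:**
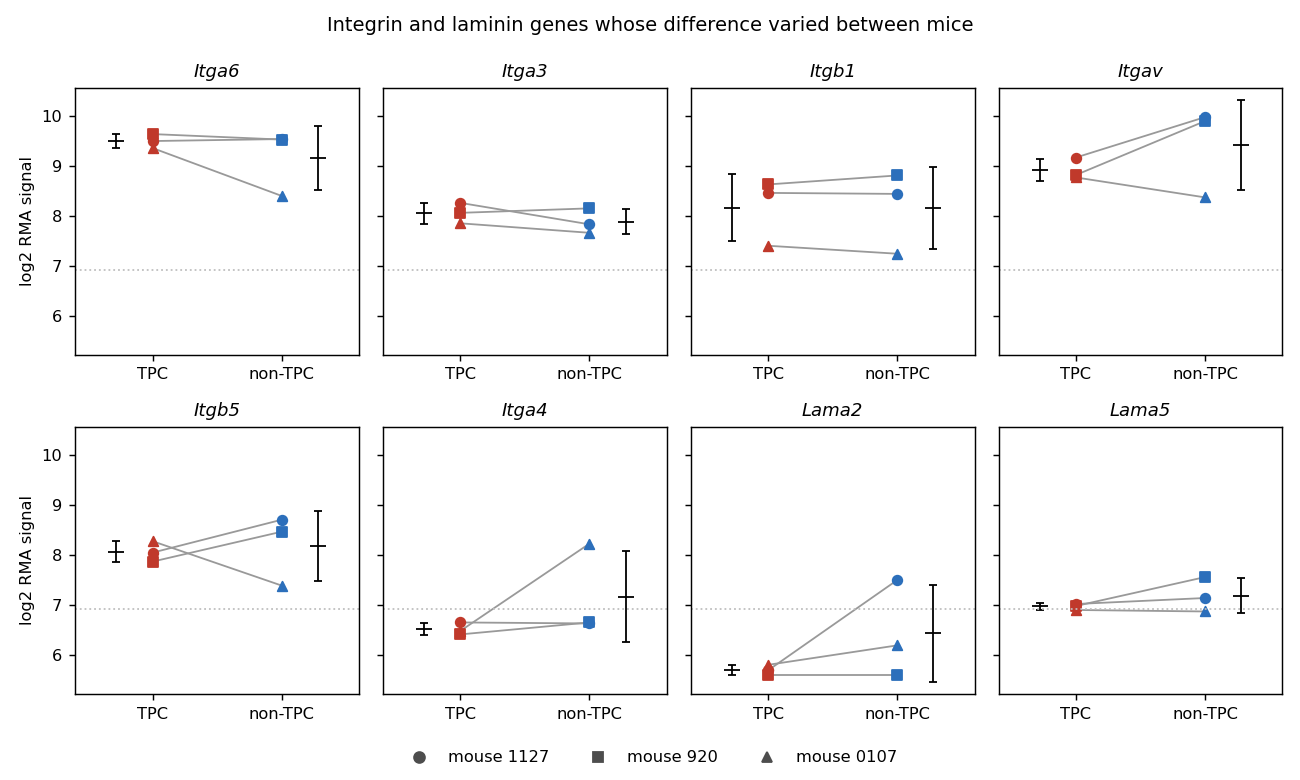
Level of 8 chains (log2 RMA signal) in TPC and non-TPC arrays, with a line joining the arrays of a mouse, bars for mean ± SD (n = 3) and a dotted line at the median level of all genes, 6.91. The non-TPC array of mouse 0107 stands apart, low for Itga6, Itgav and Itgb5 and high for Itga4, at 8.23.

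None of the 5 epithelial integrin chains had the same direction in all mice, and 0 were called or had an unadjusted p under 0.05. Itga6 encodes the alpha chain of the hemidesmosomal laminin receptor. It was at 9.50, 9.64 and 9.36 in TPCs of mice 1127, 920 and 0107, against 9.54, 9.53 and 8.40 in their non-TPCs. The fractions differed by at most 0.11 in mice 1127 and 920, and the mean difference of 0.34 (SE 0.32, adjusted p = 0.904) came from mouse 0107, at 0.96. The second Itga6 probe set had the same shape, with -0.35, 0.19 and 1.18.

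Itgb4, the beta partner of that chain in hemidesmosomes, was between 5.09 and 5.24 in TPCs and between 4.91 and 5.36 in non-TPCs and differed by 0.05 (adjusted p = 0.971). Itga3, a chain of the laminin receptor of lung and kidney epithelium, was at 8.26, 8.06 and 7.85 in TPCs, against 7.83, 8.15 and 7.66 in non-TPCs, and differed by 0.18 (adjusted p = 0.912). Itga2, the epithelial and platelet collagen receptor chain, which neighbours Itga1 on chromosome 13, differed by -0.13 (adjusted p = 0.904). Itgb6, an epithelial chain that activates TGF-beta with the alpha V chain, was at 4.10, 3.96 and 3.92 in TPCs, against 4.75, 4.80 and 3.86 in non-TPCs (difference -0.48, adjusted p = 0.868). Its second probe set differed by 0.00, -0.10 and -0.08 in the 3 mice. The group median was 0.05, and it was -0.04 when mouse 1127 was left out, so no direction holds for it. Leaving out only one non-TPC array gave -0.05 for mouse 1127 and -0.04 for mouse 0107.

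Among 7 leukocyte integrins, Itgb2 had the largest difference. Itgb2 encodes CD18, the beta chain of the integrins of neutrophils, macrophages and lymphocytes. It was at 5.26, 6.08 and 5.05 in TPCs of mice 1127, 920 and 0107, against 6.54, 6.95 and 6.04 in their non-TPCs. Within each mouse TPCs were lower, by 1.27, 0.87 and 0.98 units, although the TPC array of mouse 920 was above the non-TPC array of mouse 0107. The mean difference was -1.04 (SE 0.34, limma adjusted p = 0.628). The limma fit blocked by mouse gave an SE of 0.15 and an adjusted p of 0.119, still past no threshold.

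The alpha chains that pair with Itgb2 did not show a difference of that size. Itgal, the lymphocyte chain LFA-1 alpha, was at 5.70, 5.60 and 5.81 in TPCs, against 5.38, 5.48 and 5.49 in non-TPCs, slightly higher in all 3 mice (0.25, adjusted p = 0.829). The second Itgal probe set did not repeat this, with -0.08, 0.06 and 0.00 in mice 1127, 920 and 0107. Itgam, the myeloid chain CD11b, lay between 3.55 and 3.63 in TPCs and between 3.28 and 3.56 in non-TPCs, below the first quartile of all genes (0.14, adjusted p = 0.901). Itgax, the dendritic cell and alveolar macrophage chain CD11c, differed by -0.22 and was lower in TPCs of 3 of 3 mice (adjusted p = 0.878). The difference between Itgb2 and these chains was not tested.

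Itgae, the chain of tissue-resident lymphocytes that binds E-cadherin, differed by 0.33 (adjusted p = 0.81), and its beta partner Itgb7 by 0.27 (SE 0.15, adjusted p = 0.861), each higher in TPCs of 3 of 3 mice. Itgb7 was at 7.06, 7.03 and 7.12 in TPCs, against 6.69, 6.68 and 7.04 in non-TPCs. Itga4, a chain of the VCAM-1 receptor of leukocytes and of some neural crest and mesenchymal cells, was at 6.65, 6.41 and 6.48 in TPCs, against 6.63, 6.65 and 8.23 in non-TPCs (difference -0.65, adjusted p = 0.878). That high value stood alone in the non-TPCs of mouse 0107, and the second Itga4 probe set differed there by -1.45, against -0.45 and -0.53 in mice 1127 and 920. The group median was 0.14, with 0 genes called and 1 lower at an unadjusted p under 0.05, beside 4.35% of all genes.

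Most general leukocyte markers were lower beside Itgb2. Of 10 general leukocyte genes 0 were called, 7 were lower and 0 higher at an unadjusted p under 0.05, and the median difference was -1.05. Their summed signal was 1320 to 1880 in TPCs and 1920 to 3360 in non-TPCs, and none of them averaged below the first quartile of all genes in either fraction. Ptprc, which encodes CD45, differed by -2.08 (adjusted p = 0.391), and Lcp1, a leukocyte actin bundler, by -2.20 (adjusted p = 0.169). Lcp1 fell in the limma fit blocked by mouse (adjusted p = 0.0333). Tyrobp, a myeloid signalling adaptor, differed by -1.38 (adjusted p = 0.336). Coro1a went the other way, higher in TPCs of all 3 mice (mean 0.43, limma adjusted p = 0.899). Laptm5 differed by 0.02, with both signs among the mice, and Rac2 by -0.12.

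Of 8 neutrophil genes 1 fell, S100a9, a calcium-binding protein (-3.25, limma adjusted p = 0.0338), and its partner S100a8 differed by -2.96 (adjusted p = 0.0911) and the lectin receptor Clec4d by -2.12 (0.2), with a list median of -0.64. S100a9 did not pass with the replicate block (0.0709). The neutrophil sum was 405 to 610 in TPCs and 1900 to 2600 in non-TPCs, with Cxcr2, Ngp and Camp below the first quartile in both. Of 10 macrophage genes 0 were called and 4 were lower at an unadjusted p under 0.05 (median -0.66), with Cd14 at -2.42, Cd68 at -1.03 and Csf1r at -0.80, and sums of 807 to 1500 in TPCs and 1830 to 3880 in non-TPCs. The 8 T and NK cell genes had a median of -0.04, 0 genes called or under an unadjusted p of 0.05, and sums of 400 to 413 in TPCs and 367 to 432 in non-TPCs. In bulk samples such as these, fewer cells of a type and less RNA per cell cannot be told apart, and the part of leukocytes in the Itgb2 values was not tested.

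The 2 platelet integrin genes showed small differences. Itga2b, the platelet fibrinogen receptor alpha chain, was at 7.07, 6.92 and 7.46 in TPCs of mice 1127, 920 and 0107, against 6.80, 6.89 and 7.33 in their non-TPCs. It differed by 0.14 (SE 0.21, adjusted p = 0.935). Its partner Itgb3, also made by endothelium and osteoclasts, was at 7.16, 5.81 and 6.69 in TPCs, against 6.79, 6.49 and 6.30 in non-TPCs, and differed by 0.03 (adjusted p = 0.991), with -0.68 in mouse 920 and 0.37 and 0.39 in mice 1127 and 0107. Of 5 platelet markers 0 were called and 1 was lower at an unadjusted p under 0.05, Pf4 (-0.89), while the list median was 0.11. The receptor genes Gp6 (0.30) and Gp1bb (0.17) were higher in TPCs of 3 of 3 mice without passing, and the list had sums of 242 to 301 in TPCs and 263 to 384 in non-TPCs.

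All 9 laminin chains had a mean below that of non-TPCs, between -1.85 and -0.11, and none passed. The median difference was -0.38, beside 0.04 over all genes. At an unadjusted p under 0.05, 4 chains were lower and 0 higher, beside 4.35% and 2.12% of all genes. In all 3 mice 5 chains were lower, and the arrays of 5 lower chains did not overlap, beside 13.8% and 5.91% of all genes. Lamb1 encodes the beta chain of most basement membrane laminins, in vessels, muscle and epithelium alike. It was at 5.46, 4.85 and 5.09 in TPCs of mice 1127, 920 and 0107, against 8.08, 5.61 and 7.24 in their non-TPCs. The TPC arrays were all low and alike, and the non-TPC array of mouse 920 lay far closer to them than the other two. Lamb1 differed by -1.85 (SE 0.59, limma adjusted p = 0.625), a 3.60-fold lower mean, and by -0.76 averaged over its 4 probe sets. The limma fit blocked by mouse gave an SE of 0.37 and an adjusted p of 0.23.

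Lamb3 encodes the beta chain of the epithelial laminin that anchors hemidesmosomes. It was at 4.81, 5.04 and 5.21 in TPCs of mice 1127, 920 and 0107, against 5.77, 6.17 and 5.90 in their non-TPCs. The arrays did not overlap, and the differences were -0.96, -1.13 and -0.69. The mean difference was -0.93 (SE 0.17, limma adjusted p = 0.261), a 1.90-fold lower mean. Lama3, the alpha chain of the same trimer, was at 5.46, 5.52 and 5.52 in TPCs, against 5.70, 5.84 and 6.10 in non-TPCs, again without overlap. Lama3 differed by -0.38 (SE 0.15, adjusted p = 0.729), and by -0.17 averaged over 2 probe sets.

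Lama4 encodes the alpha chain of endothelial and mesenchymal laminin. It was at 6.08, 6.07 and 6.33 in TPCs of mice 1127, 920 and 0107, against 7.80, 6.37 and 7.04 in their non-TPCs. The lowest non-TPC value, in mouse 920, was just above the highest TPC value. Lama4 differed by -0.91 (SE 0.34, adjusted p = 0.729), and by -0.42 averaged over 2 probe sets. Lama2, the alpha chain of muscle and connective tissue laminin, was at 5.69, 5.60 and 5.80 in TPCs, against 7.50, 5.60 and 6.19 in non-TPCs, so mouse 1127 carried most of its mean difference of -0.73 (adjusted p = 0.877).

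Lama5, the alpha chain of adult epithelial and vascular basement membrane, was at 7.02, 6.98 and 6.90 in TPCs, against 7.14, 7.56 and 6.87 in non-TPCs (difference -0.22, adjusted p = 0.901). Lama1, the embryonic alpha chain, differed by -0.19 (adjusted p = 0.914). Lamb2, a beta chain of synapse, muscle and kidney laminin, was lower in TPCs of 3 of 3 mice without overlap, between 5.26 and 5.39 in TPCs and between 5.52 and 5.94 in non-TPCs (difference -0.35, adjusted p = 0.795). Lamc1, the gamma chain of most laminins, was at 6.14, 5.82 and 5.79 in TPCs, against 6.06, 6.04 and 5.96 in non-TPCs, and differed by -0.11 (adjusted p = 0.932). Its second probe set, of nearly the same brightness, differed by -0.80, -0.13 and -0.54 in mice 1127, 920 and 0107, so the gene has no single pattern on this array.

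**Figure D3:**
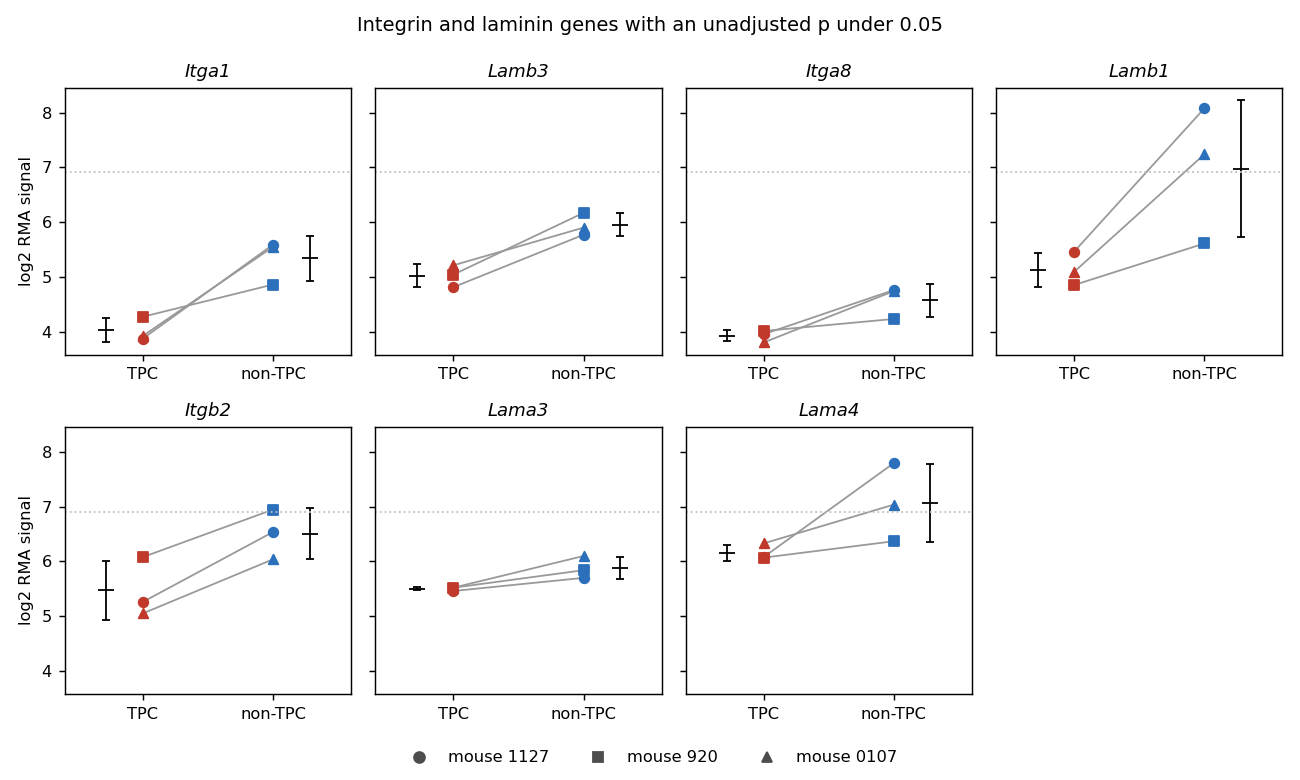
Level of the 7 chains with an unadjusted p under 0.05 (log2 RMA signal) in TPC and non-TPC arrays, with a line joining the arrays of a mouse, bars for mean ± SD (n = 3) and a dotted line at the median level of all genes, 6.91. Every line runs upward to non-TPC, and for Lamb1 and Itga1 mouse 920 has the flattest one.

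Vascular and stromal markers were set beside Itga1, Lamb1, Lama2 and Lama4. Of 10 endothelial genes 0 were called and 3 were lower at an unadjusted p under 0.05 (median -0.77), with medians of -0.58, -0.05 and -1.49 in mice 1127, 920 and 0107. The VEGF receptor gene Kdr differed by -0.91, the tight junction gene Cldn5 by -2.13 and the endothelial cadherin gene Cdh5 by -1.21 (adjusted p from 0.628 to 0.743). The endothelial sum was 512 to 549 in TPCs and 573 to 1840 in non-TPCs, and Pecam1 (difference -0.03), Tie1 and Emcn were below the first quartile of all genes in both fractions. Of 10 fibroblast genes 0 were called and 4 were lower at an unadjusted p under 0.05 (median -1.79), with medians of -2.62, -0.50 and -0.36 in the same mice. The matrix genes Lum and Col3a1 and the PDGF receptor gene Pdgfra differed by -3.07, -4.79 and -2.00, and Col1a1 by -0.35. The fibroblast sum was 1680 to 3420 in TPCs and 3720 to 23100 in non-TPCs, the highest in mouse 1127. The gene with most weight in that linear sum was Dcn, the brightest of the list in every array. Dcn was at 11.58, 10.36 and 10.94 in TPCs of mice 1127, 920 and 0107, against 13.82, 12.38 and 11.51 in their non-TPCs. Tcf21 was below the first quartile in both fractions.

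Of 8 smooth muscle and pericyte genes 0 were called and 1 was lower at an unadjusted p under 0.05, the pericyte gene Rgs5 (-3.36), with the actin gene Acta2 at -1.45 and Tagln at -0.79. The list median was only -0.18, and Cspg4 (0.15), Des (0.07) and Myh11 (0.05) had a higher mean in TPCs. Their sum was 470 to 516 in TPCs and 548 to 2430 in non-TPCs, with Myh11 and Cnn1 below the first quartile in both. Of 6 mesothelial genes 1 fell, the membrane glycoprotein gene Gpm6a (-4.95, limma adjusted p = 0.0338), and Wt1 differed by -0.84 and Msln by -0.90, with a median of -0.71 and sums of 198 to 225 in TPCs and 569 to 996 in non-TPCs. The differences of Itga1, Itga8, Lamb1, Lama2 and Lama4 were all smallest in mouse 920, where the endothelial median was smallest too. The same chains other than Itga8 had their largest difference in mouse 1127, as the fibroblast median did, whereas the endothelial median was largest, and the fibroblast median smallest, in mouse 0107. Over all 3 mice only Itga8 among these 5 chains had the order of the endothelial medians, and none had that of the fibroblast medians. The smooth muscle and pericyte medians were -0.44, -0.12 and -0.15 in mice 1127, 920 and 0107, the order of Itga1, Lamb1, Lama2 and Lama4. With only 3 mice, such an order decides nothing about the cells. The part of these cells in the differences was not tested.

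Lung epithelial markers were set beside Lamb3 and Lama3. Of 7 alveolar type 2 genes 2 fell, the surfactant genes Sftpa1 (-3.41, limma adjusted p = 0.00374) and Sftpc (-2.20, adjusted p = 0.0238), and Cxcl15 differed by -2.73 (median -2.15). Sftpc did not pass with the replicate block (0.051). Their sum was 2090 to 2310 in TPCs and 6820 to 12100 in non-TPCs. Of 8 alveolar type 1 genes 0 were called and 4 were lower at an unadjusted p under 0.05 (median -1.38), with Cav1 at -3.48, Clic5 at -2.33 and Pdpn at -1.34 and sums of 943 to 1170 in TPCs and 2490 to 4720 in non-TPCs. Rtkn2 went the other way in all 3 mice (mean 0.20), at a level below the first quartile in both fractions. Akap5 differed by 0.06, with both signs among the mice. The 6 basal cell genes, which belong to the airway cells richest in hemidesmosomes, had a median of 0.03, 0 genes called and 1 higher at an unadjusted p under 0.05, Krt17 (0.38), and sums of 244 to 283 in TPCs and 241 to 305 in non-TPCs, with Krt14, Krt15 and Krt17 below the first quartile in both. In mice 1127, 920 and 0107 the alveolar type 2 medians were -2.24, -2.45 and -1.55, and the type 1 medians -1.30, -1.77 and -0.63. Both were smallest in mouse 0107, where the difference of Lamb3 was smallest (-0.69) but that of Lama3 largest (-0.58). With only 3 mice, such an order decides nothing, and the part of alveolar cells in the laminin values was not tested.

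Neuroendocrine and general epithelial markers did not pass. The 10 neuroendocrine genes had a median of 0.14 and 0 genes called or under an unadjusted p of 0.05, with Insm1 at 0.75, Chga at 0.83 and Dll3 at 0.59 and sums of 15300 to 21600 in TPCs and 13000 to 19700 in non-TPCs. Resp18 (-0.26) and Scg3 (-0.11) had a lower mean in TPCs, and 7 of the 10 genes had both signs among the mice. The 8 epithelial genes had a median of 0.60 and 0 genes called or under an unadjusted p of 0.05, with the keratin gene Krt19 at -1.12, the cadherin gene Cdh1 at 0.83, the splicing factor gene Esrp1 at 0.88 and Epcam at 0.78.

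**Figure D4:**
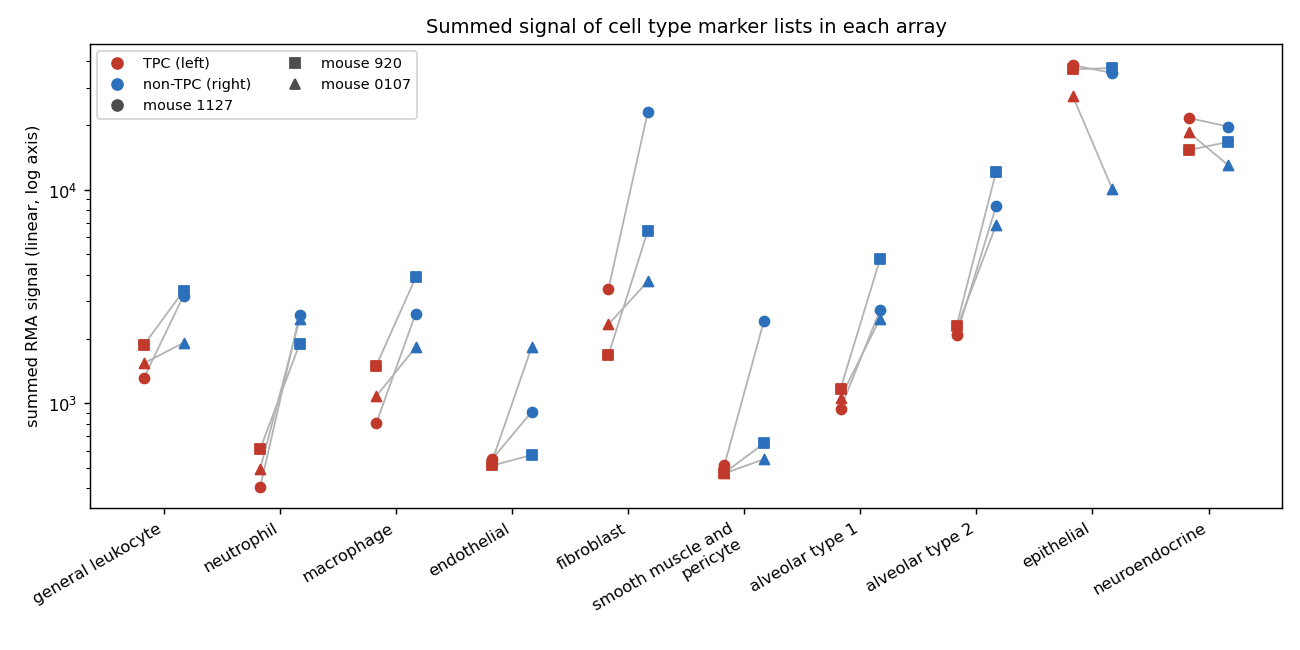
Summed linear RMA signal (log axis) of 10 cell type marker lists in each array, TPC left and non-TPC right, with a line joining the arrays of a mouse. Leukocyte, stromal and alveolar sums are higher in every non-TPC array than in the TPC array of its mouse, and the epithelial sum of the non-TPCs of mouse 0107 stands apart at 10100.

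The partners of the chains outside the family were read from 4 further lists. Of 16 other basement membrane genes 0 were called, and 4 were lower and 0 higher at an unadjusted p under 0.05 (median -0.06). Col4a1, the collagen IV chain that forms the basement membrane network with laminin, was at 7.09, 6.42 and 6.64 in TPCs of mice 1127, 920 and 0107, against 9.82, 8.08 and 9.88 in their non-TPCs. The arrays did not overlap, and Col4a1 differed by -2.54 (SE 0.50, limma adjusted p = 0.275, or 0.0975 when blocked by mouse). The proteoglycan gene Agrn differed by -0.95 (adjusted p = 0.384) and Plec, the linker of hemidesmosomes to keratin, by -0.51 (adjusted p = 0.628). Col4a2 and Nid1, which encodes the protein that ties laminin to collagen IV, differed by -1.56 and -2.20, and Nid1 by -4.32 in mouse 1127 against -1.36 and -0.92 in mice 920 and 0107. Hspg2, the perlecan gene of the same membranes, differed by 0.09.

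Of 17 integrin ligand genes outside the laminins 0 were called, and 4 were lower and 0 higher at an unadjusted p under 0.05 (median -0.20). Ccn1, a matricellular ligand of several integrins, was at 7.35, 7.09 and 7.19 in TPCs, against 8.80, 8.57 and 8.08 in non-TPCs, and differed by -1.27 (SE 0.21, limma adjusted p = 0.2). Fbln5, an elastic fibre protein with an RGD site, differed by -1.62 (adjusted p = 0.626), and Fn1, which encodes fibronectin, by -2.02 (adjusted p = 0.628), with -2.66, -2.33 and -1.07 in mice 1127, 920 and 0107. Icam1 and Icam2, ligands of the Itgb2 integrins on other cells, differed by -1.14 and -1.79. Vtn, which encodes vitronectin, the ligand of alpha V integrins, was at 5.43, 5.25 and 6.42 in TPCs, against 5.91, 5.42 and 10.75 in non-TPCs, the high value standing in the same array as that of Itga4.

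Of 27 focal adhesion genes 0 were called, and 4 were lower and 0 higher at an unadjusted p under 0.05 (median -0.03). The actin cross-linker gene Flna was at 7.11, 6.54 and 6.60 in TPCs, against 7.65, 7.63 and 7.35 in non-TPCs, and differed by -0.79 (SE 0.20, limma adjusted p = 0.454). Tns1, which encodes a tensin that binds integrin tails, differed by -0.45, and Lims1, the adaptor PINCH that joins the integrin-linked kinase, by -0.45 as well. The talin gene Tln1, whose product activates integrins, differed by -0.14, and the kindlin gene Fermt2 by -0.03. The second talin gene Tln2 (0.26) and the kindlin gene Fermt3 (0.19) were higher in TPCs of 3 of 3 mice. Of the 27 genes 9 were lower and 4 higher in all 3 mice, beside 13.8% and 19.7% of all genes. Of 6 other laminin receptor genes 0 were called and 1 was lower at an unadjusted p under 0.05, the syndecan gene Sdc1 (-1.15, adjusted p = 0.62), while dystroglycan, encoded by Dag1, differed by 0.24 and Sgce by -0.19.

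**Figure D5:**
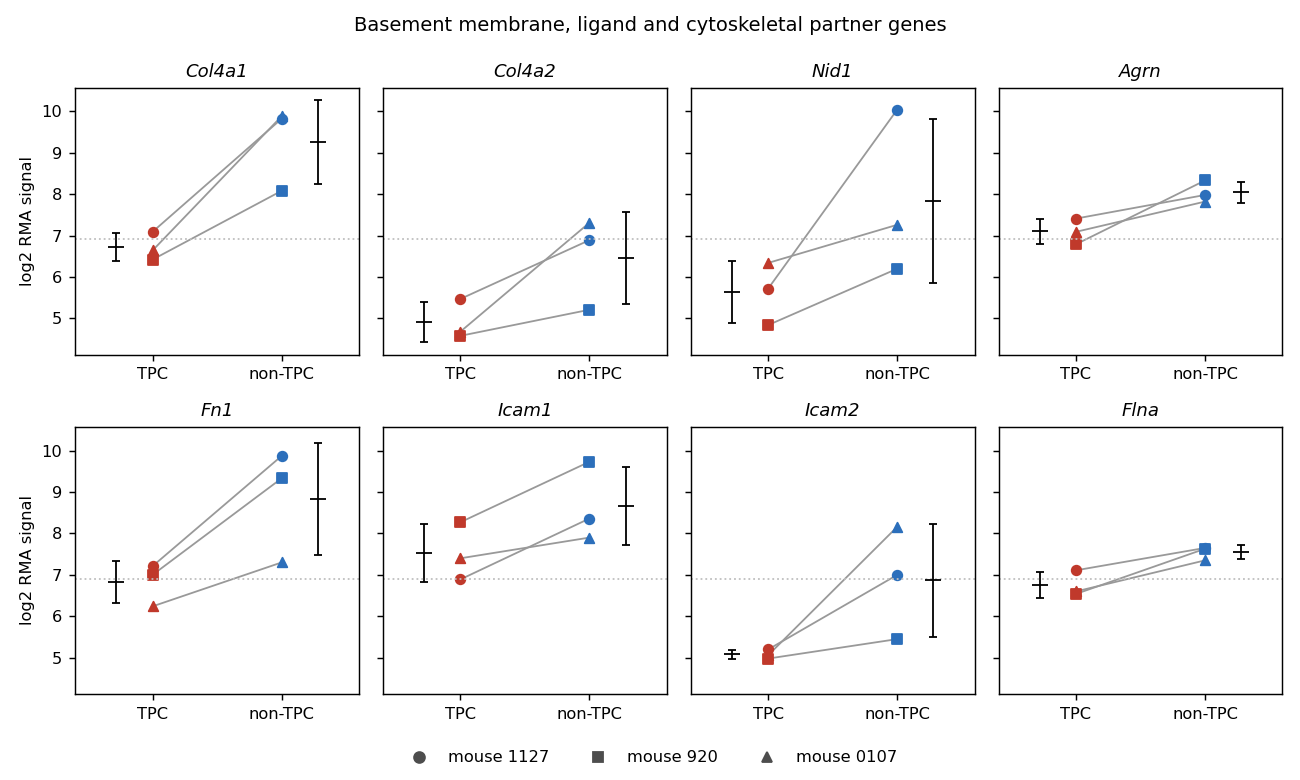
Level of 8 partner genes (log2 RMA signal) in TPC and non-TPC arrays, with a line joining the arrays of a mouse, bars for mean ± SD (n = 3) and a dotted line at the median level of all genes, 6.91. Each line runs upward to non-TPC, and Nid1 has its steepest line in mouse 1127, at a difference of -4.32.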

How the data were processed

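RNA from 6 sorted samples, 3 TPC and 3 non-TPC, was measured on 1-colour Affymetrix arrays after WT Plus target preparation, per the labels' protocols. That kit is made for whole-transcript arrays, whereas the probe annotation is of a 3′ expression array. The sources used here do not explain this, and its effect on probe set signals is unknown. The deposited log2 signals per probe set come from the authors' RMA, per the submitters' processing notes. The sources used here state no version, probe set definition or log base, and the log2 scale was read from values of 2.70 to 14.81 with array medians of 6.00 to 6.04. Precision is limited by the number of arrays.

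Of 45101 probe sets, 64 controls were left out, 34945 had 1 gene symbol, 932 had several and 9160 had none. Symbols were updated through Entrez identifiers for 18032 of 18193 genes, and 161 kept the array's symbol. Each gene was read from the probe set with the highest mean, with no filter. Differences were tested by two-sided moderated tests of limma 3.58.1 under R 4.3.3, through lmFit and eBayes with fraction as the only term, with Benjamini-Hochberg adjustment over all genes and a threshold of 0.05. Figures were drawn with matplotlib 3.10.9 in Python 3.11.15. Both fractions of a mouse share an animal, so the numbers pair the samples; deviations from the fraction means correlated at 0.30, 0.46 and 0.36 within mice 1127, 920 and 0107 and at most at -0.08 between mice. Blocking by mouse (the replicate block) left 2 residual degrees of freedom against 4. The procedure was tested on simulated data.

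The members, groups and lists were chosen with earlier results of these data known. Every member is accounted for, with the value of each sample for those with an unadjusted p under 0.05, a difference of at least 1, or a level above the median of all genes and the same direction in 3 mice; further values were added after they were seen. Up to 3 genes of smallest p, any past the threshold and the defining markers were named per list. Others were chosen for description after their values were seen. They were Itgb1, Itga6, Itgav, Col4a2, Nid1, Hspg2, Icam1, Icam2, Vtn, Tln1, Tln2, Fermt2, Fermt3, Cspg4, Des, Myh11, Coro1a, Laptm5, Rac2, Dcn, Rtkn2, Akap5, Resp18 and Scg3. Marker sums add linear signals over a list, so its brightest genes weigh most. Counts by list at an unadjusted p under 0.05 stand beside 4.35% lower and 2.12% higher over all genes. Alternatives were the mouse as a block, the probe set rule, a filter on dim genes, centring, the variance prior and leaving out each mouse or array.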

Additional observations from a re-analysis of the deposited data

How the results depend on the processing

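No integrin or laminin chain passed the threshold in either direction under any of the 16 alternatives run, and the replicate block changed no call among them (0 lower, 0 higher). Over all genes the count lower in TPCs, 11, was 39 with the mouse as a random block, 4 with the mean of all probe sets of a gene, 13 with the replicate block, and 0 to 84 without 1 mouse or array (0 when mouse 1127 was left out, 84 when the non-TPCs of mouse 0107 were), and 0 genes were higher in any fit. With genes above the median level only, the leukocyte integrin median, 0.14, was 0.27 from 1 gene, the epithelial median, 0.05, was 0.26 from 2, and the stromal median, -0.38, was -0.12 from 3. The stromal median was -0.16 with the mean of all probe sets. Without 1 mouse or array the medians ran from 0.07 to 0.21 for leukocyte integrins, from -0.05 to 0.08 for epithelial integrins, from -0.54 to -0.04 for stromal integrins and from -0.45 to -0.35 for laminins. The difference of Itga2b was 0.14 and ran from -0.01 to 0.31 without 1 mouse or array, the -0.01 when the TPCs of mouse 0107 were left out. The filter leaves fewer genes, and the cause of the other shifts was not tested. Fits without 1 array keep a mouse without its partner and so mix mouse with fraction.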

Other observations

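Of 38 further probe sets of the chains, 20 had the sign of the brightest one. Among those brighter than the median gene, 3 of 5 did. One was the third brightest of Itgb1, where TPCs averaged 6.56 and non-TPCs 7.37, beside 8.16 in both fractions for the brightest.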
